A study of Canis lupus familiaris with 23 samples.

Results

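The 7 smooth muscle genes MYH11, ACTG2, ACTA2, TAGLN, CNN1, MYL9 and DES were followed by RNA abundance in dog skin and in organoids grown from it. They were picked by symbol, with no measured value in the rule: 7 of the 20442 entries that the tissue and expansion libraries list. Of the 7 genes, 6 passed the filter on low counts and were tested among 9888 entries. DES had too few counts. MYH11 and DES are not listed for the 6 libraries grown in differentiation medium.

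The data are 23 bulk RNA libraries of dog (Canis lupus familiaris) in 12 groups, made by CEL-seq2, which counts transcripts near their 3′ ends. Organoids of follicle origin at passages 3 to 6 (later), with no inhibitor named in their labels, were grown in differentiation medium lacking Noggin, R-Spondin-1 and Forskolin (2 libraries), in differentiation medium lacking Noggin and R-Spondin-1 (2), and in differentiation medium (2). Organoids of interfollicular epidermis, all with a Tgf-beta inhibitor, gave 1 later library and 1 at passages 0 to 1 (early). Follicle organoids in expansion medium gave 2 later and 3 early libraries with the inhibitor, and 2 later and 2 early ones without it, all at day 7. Tissue gave 2 libraries of hair follicles in mixed growing and resting phases, 2 of interfollicular epidermis and 2 of whole skin. Noggin is an antagonist of BMP ligands, R-Spondin-1 amplifies Wnt signals and Forskolin activates adenylyl cyclase. The labels give no breed, age or sex, and do not say whether replicates came from separate dogs or cultures, so p-values measure the spread between these libraries, which may be technical. Each group of interfollicular organoids is 1 library and was assumed to vary like the other groups.

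Smooth muscle contracts when the kinase MYLK phosphorylates the regulatory light chain of smooth muscle myosin, which then pulls on actin filaments. In skin it forms the arrector pili muscles that raise hairs and the walls of blood vessels. MYH11 encodes the smooth muscle myosin heavy chain and MYL9 a regulatory light chain. ACTA2 and ACTG2 are the vascular and the visceral smooth muscle actin, TAGLN (transgelin) and CNN1 (calponin) bind actin, and DES (desmin) is the muscle intermediate filament. MYH11, CNN1 and ACTG2 are largely held to smooth muscle and myoepithelial cells, whereas ACTA2, TAGLN and MYL9 are also used by pericytes and activated fibroblasts, and TAGLN and MYL9 by epithelial cells with strong actin bundles.

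Library totals ran from 84391 counts (interfollicular epidermis replicate 2) to 4792471, so that 3 counts equal from 0.69 to 23.4 CPM (counts scaled to a common library size after TMM normalisation). CPM values of ACTA2 in 5 libraries and of MYL9 in 3 rest in part on fractional counts, whose source was not tested, and are treated as uncertain. For ACTA2 the 5 include both interfollicular organoid libraries and follicle tissue replicate 2, and no follicle organoid in expansion medium. The summed CPM of a 9-gene keratinocyte list, as a check of the labels, was 28049 to 79639 in the organoids, 10949 to 11465 in follicles, 18159 to 32805 in interfollicular epidermis and 13606 to 15492 in whole skin.

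MYH11, the motor, was a tissue transcript with 1 exception. Later interfollicular organoids held 91.0 CPM (15 counts) and early ones 1.94 CPM (1 count). Follicle organoids held 4.46 and 1.00 CPM later with the inhibitor, 7.45, 3.49 and 5.52 early with it, 6.26 and 6.74 later without it, and 6.73 and 4.40 early without it. Follicle tissue held 411 and 388 CPM, interfollicular epidermis 164 and 125, and whole skin 677 and 552. No organoid library overlapped the tissue range, and the order of the tissues was whole skin, follicles, interfollicular epidermis with no overlap between neighbours. Among follicle organoid groups neighbouring ranges overlapped.

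MYL9, its light chain partner, had counts in every library. The medium lacking Noggin, R-Spondin-1 and Forskolin gave 106 and 113 CPM, the medium lacking Noggin and R-Spondin-1 109 and 34.9, and the full differentiation medium 76.9 and 24.2. Interfollicular organoids had 24.3 CPM later and 15.5 early. Follicle organoids had 15.6 and 19.1 CPM later and 23.7, 16.3 and 24.4 early with the inhibitor, against 37.6 and 60.3 later and 45.8 and 44.5 early without it. Follicle organoids in expansion medium with the inhibitor and those without it therefore did not overlap. The difference was not called (edgeR adjusted p = 0.0943), and how many of all entries also separate in this way was not counted. Tissue MYL9 was 317 and 150 CPM in follicles, 80.7 and 7.78 in interfollicular epidermis, where the lower value is 1 count, and 351 and 219 in whole skin.

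Of the smooth muscle actins ACTG2 went with MYH11 in the groups that list both. ACTG2 stood at 4.62 and 0 CPM without Noggin, R-Spondin-1 and Forskolin, 4.86 and 0 without Noggin and R-Spondin-1, and 5.02 and 0 in full differentiation medium. Interfollicular organoids had 36.4 CPM later and 1.94 early. In follicle organoids ACTG2 was 5.20 and 3.01 CPM later and 5.42, 4.65 and 2.76 early with the inhibitor, against 5.97 and 7.17 later and 4.04 and 3.52 early without it. Apart from the later interfollicular library, all cultures lay in this low range. Tissue ACTG2 was 504 and 327 CPM in follicles, 134 and 140 in interfollicular epidermis and 591 and 363 in whole skin.

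ACTA2 was the actin with single high cultures. Without Noggin, R-Spondin-1 and Forskolin 1 library had 69.3 CPM (16 counts) and the other 2.31 (1 count). Both libraries without Noggin and R-Spondin-1 were at 0, and full differentiation medium gave 6.69 and 0 CPM. Interfollicular organoids had 133 CPM later and 25.2 early, both above every follicle organoid in expansion medium. Follicle organoids had 8.17 and 4.01 CPM later and 7.45, 6.98 and 5.29 early with the inhibitor, against 6.83 and 5.06 later and 6.73 and 13.6 early without it. Tissue ACTA2 was 554 and 357 CPM in follicles, 183 and 62.3 in interfollicular epidermis and 590 and 406 in whole skin, so that the later interfollicular organoid library fell inside the range of its tissue of origin.

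TAGLN, an actin-bundling protein, exceeded the lowest tissue value in 5 of 6 differentiation libraries. That value is 125 CPM in interfollicular epidermis, from 16 counts. Only the libraries at 637 and 387 CPM exceeded the lower value of follicle tissue, 371 CPM. The 3 differentiation media gave 143 and 637 CPM without Noggin, R-Spondin-1 and Forskolin, 387 and 180 without Noggin and R-Spondin-1, and 179 and 41.5 in full medium. Interfollicular organoids had 54.6 CPM later and 21.3 early. Follicle organoids had 21.5 and 53.2 CPM later and 22.4, 18.6 and 19.6 early with the inhibitor, against 11.7 and 91.9 later and 104 and 24.7 early without it. Replicates without the inhibitor differed far more than the 3 early ones with it. In tissue TAGLN was 371 and 445 CPM in follicles, 249 and 125 in interfollicular epidermis and 659 and 631 in whole skin.

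CNN1, which restrains the myosin motor on actin, was close to undetected in culture. All 6 differentiation libraries were at 0 counts, which allows up to 1.27 CPM over the 6. Of the interfollicular organoids the later library had 6.07 CPM (1 count) and the early one 0. With the inhibitor 1 CNN1 count was found in 11108110 counts of 5 follicle organoid libraries, and without it 8 counts in 9131438 counts of 4 libraries. Tissue CNN1 was 88.6 and 39.3 CPM in follicles, 31.8 and 7.78 in interfollicular epidermis, where the lower value is 1 count, and 91.5 and 90.4 in whole skin.

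DES, the intermediate filament, was not seen in the 11 expansion libraries, in interfollicular epidermis or in whole skin. Follicles gave 2 counts (2.64 CPM) and 1 count (0.63 CPM). Whole skin had 0 DES counts beside 1325 MYH11 counts, which allows up to 1.46 CPM. The intervals and floors given cover counting error only.

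**Figure D1:**
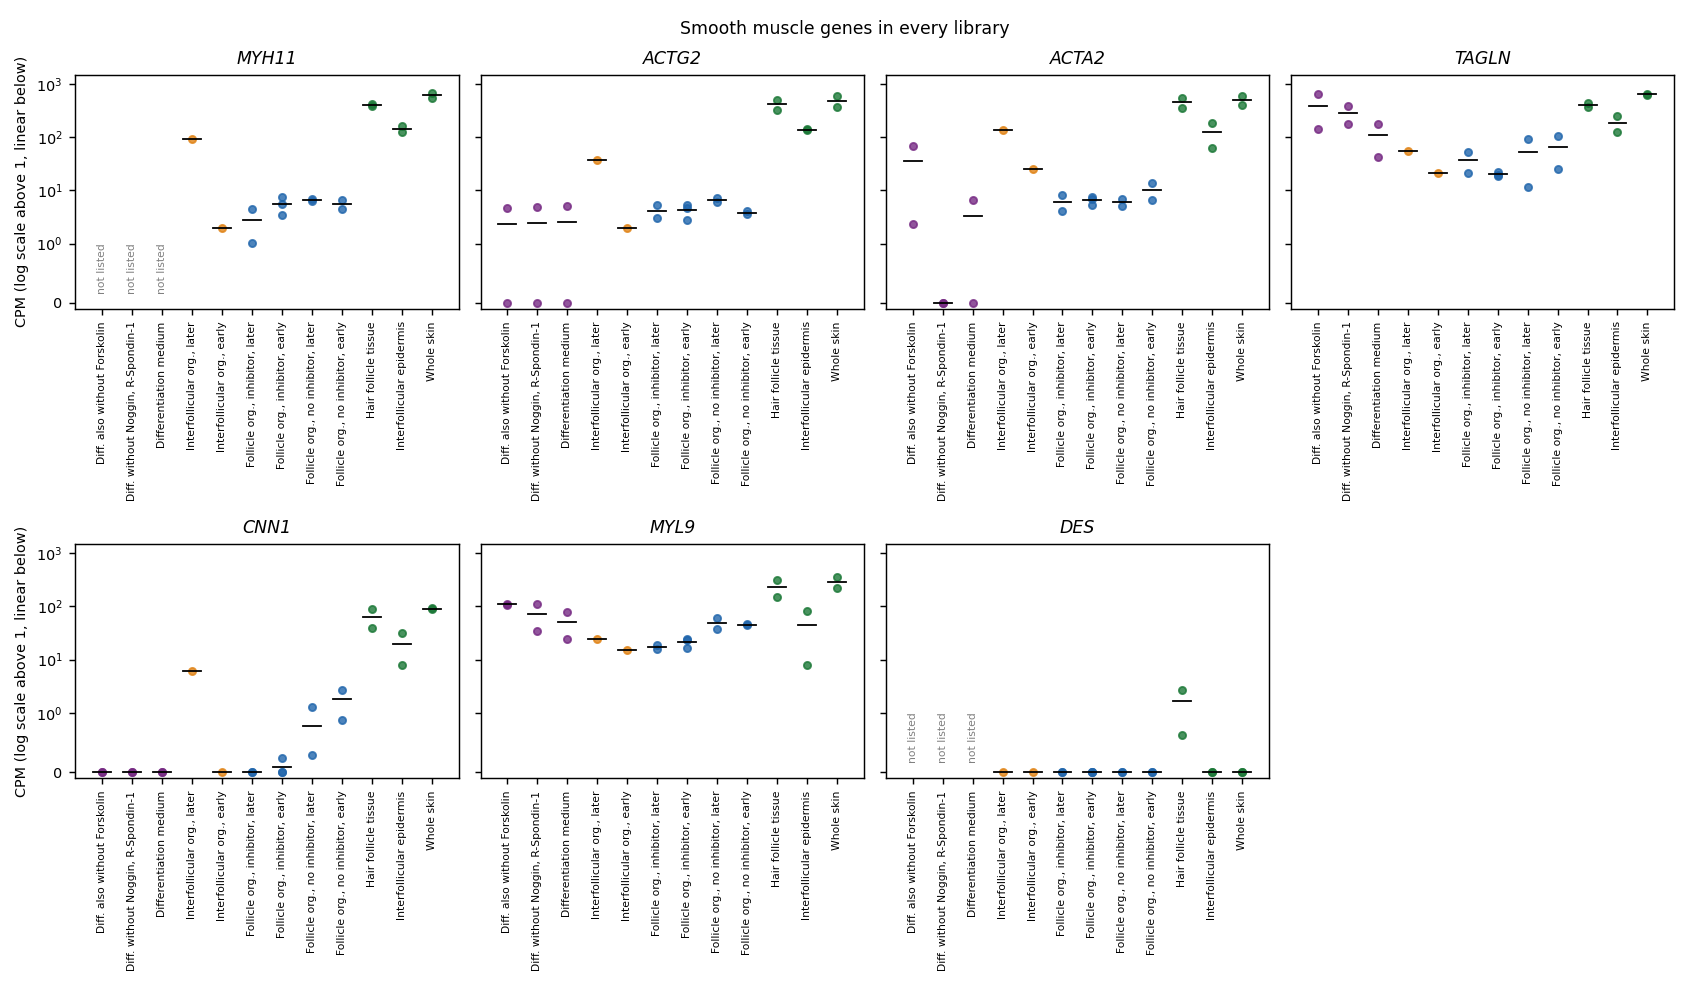
CPM of the 7 genes in every library (points) with group means (bars), on an axis that is logarithmic above 1 and linear below. Organoids in differentiation medium are purple, interfollicular organoids orange, follicle organoids in expansion medium blue and tissue green: MYH11, ACTG2 and CNN1 are high in tissue, while TAGLN and MYL9 stay above 10 CPM in all cultures.

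Hair follicles were set against interfollicular epidermis to compare the source tissues. All 6 tested genes had higher mean values in follicles than in epidermis, with log2 changes between 1.08 and 2.11. None passed the threshold, in a comparison in which 2.78% of all entries were called in either direction (edgeR quasi-likelihood test, Benjamini-Hochberg adjustment, adjusted p under 0.05). MYH11 came nearest, at 1.44 ± 0.40 (SE; adjusted p = 0.0627), with ACTG2 at 1.60 ± 0.46 (0.0667) and MYL9 at 2.11 ± 0.62 (0.0763). At an unadjusted p under 0.05 there were 5 genes, all but TAGLN (1.08 ± 0.81), and 1589 of all 9888 entries in either direction. DESeq2 called 2 genes, MYH11 and ACTG2, and its share of all entries called was not worked out. The median of the 6 was 1.52, against 0.21 over all entries.

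Markers of other cell types differed between follicles and epidermis as well. Of 11 tested fibroblast genes 3 rose in follicles, among them COL6A1 (2.97) and COL1A1 (2.60), chains of dermal collagens, and the summed CPM of the 12 listed was 4642 to 7682 in follicles and 1347 to 3818 in epidermis. COL6A2 was at 0 in both. The 11 endothelial genes summed to 101 to 108 CPM in follicles and 36.7 to 62.3 in epidermis, where CLDN5, KDR and TEK were at 0. Of 5 tested simple epithelial and sweat gland genes KRT8 (4.23) and KRT7 (2.61) were called higher (median 3.46). The list summed to 326 to 370 CPM in follicles and 15.6 to 44.0 in epidermis. AQP5 of the same list did not rise (-0.51 ± 2.16), with 3 counts in follicles and 1 in epidermis. OXTR was at 0 in both tissues. Sweat glands also hold contractile myoepithelial cells. Of 9 keratinocyte genes 5 were called lower (median -2.06), among them KRT10 (-4.02), DSC1 (-3.44) and COL17A1 (-2.10). The part of these lists in the difference of the smooth muscle genes was not tested, and in bulk RNA fewer cells of a type and less RNA per cell cannot be told apart. Among the 18 tested contractile partners, a list of other proteins of the smooth muscle filaments and their anchors, 0 passed (median 0.55). CALD1, which lies along actin, came to 1.39 ± 0.48 (adjusted p = 0.134).

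Whole skin served as the common reference of both tissues. Follicles against it gave 0 of 6 genes past the threshold, where 0% of all entries were called, with changes between -0.66 (TAGLN) and -0.13 (ACTA2) and 0 genes at an unadjusted p under 0.05 or by DESeq2. The approximate 95% interval of the MYH11 difference ran from -1.35 to 0.10, and that of ACTA2 from -1.30 to 1.03. In interfollicular epidermis 2 of 6 genes fell, where 1.37% of all entries were called lower. MYH11 fell to 144 ± 27.7 CPM in epidermis, against 614 ± 87.9 in whole skin (SD, n = 2 each; -2.07 ± 0.40, edgeR adjusted p = 0.0113), and ACTG2 to 137 CPM against 477 (-1.81 ± 0.46, 0.0495). MYL9 was at -2.41 ± 0.62 (0.0554). All 6 had an unadjusted p under 0.05, as did 947 of all 9888 entries in the lower direction.

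Both calls depended on single libraries. Without whole skin replicate 1, or without epidermis replicate 2, no gene was called and MYH11 stood at -1.91 (adjusted p = 0.0703 and 0.0962). Without whole skin replicate 2 MYH11 kept its call (-2.21, adjusted p = 0.0367) and ACTG2 lost it. Without epidermis replicate 1 both lost it (MYH11 -2.28, adjusted p = 0.0631), and the 1 gene called was MYL9 (-5.17), set against the library in which it has 1 count. ACTG2 also lost its call with size factors (-1.66, adjusted p = 0.0799), library totals (-1.53, 0.114), fractions kept (-1.81, 0.0508) or the groups compared alone (-1.64, 0.0659). Under the replicate block ACTG2 lost it too (-1.79, adjusted p = 0.0567) and MYL9 gained one (0.0364). One of the 18 partners fell with MYH11, CSRP1, a LIM protein of smooth muscle (-2.20 ± 0.56, adjusted p = 0.0475), and 2 of 11 fibroblast genes fell, COL6A1 (-2.87) and DPT (-2.89).

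Follicle organoids in expansion medium were set against the follicles they came from. All 6 tested genes fell, where 19% of all entries were called lower. The drop differed in size from gene to gene. MYH11 fell to a mean of 5.07 CPM in organoids, against 400 in follicles (-6.34 ± 0.28), ACTG2 to 4.68 against 415 (-6.50 ± 0.32) and ACTA2 to 7.20 against 455 (-5.96 ± 0.43). TAGLN fell to 43.4 against 408 CPM (-3.38 ± 0.52) and MYL9 to 33.2 against 234 (-2.94 ± 0.38). CNN1 was at 0.659 against 63.9 CPM, and its fitted change rests in part on a group at 0. Adjusted p-values ran from 5.157e-12 to 3.487e-05 (edgeR), and all 6 genes were called under every alternative fit and without any single library. Whether the change of one gene differed from that of another was not tested. The members' median was -6.15, against 0.00 over all entries.

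**Figure D2:**
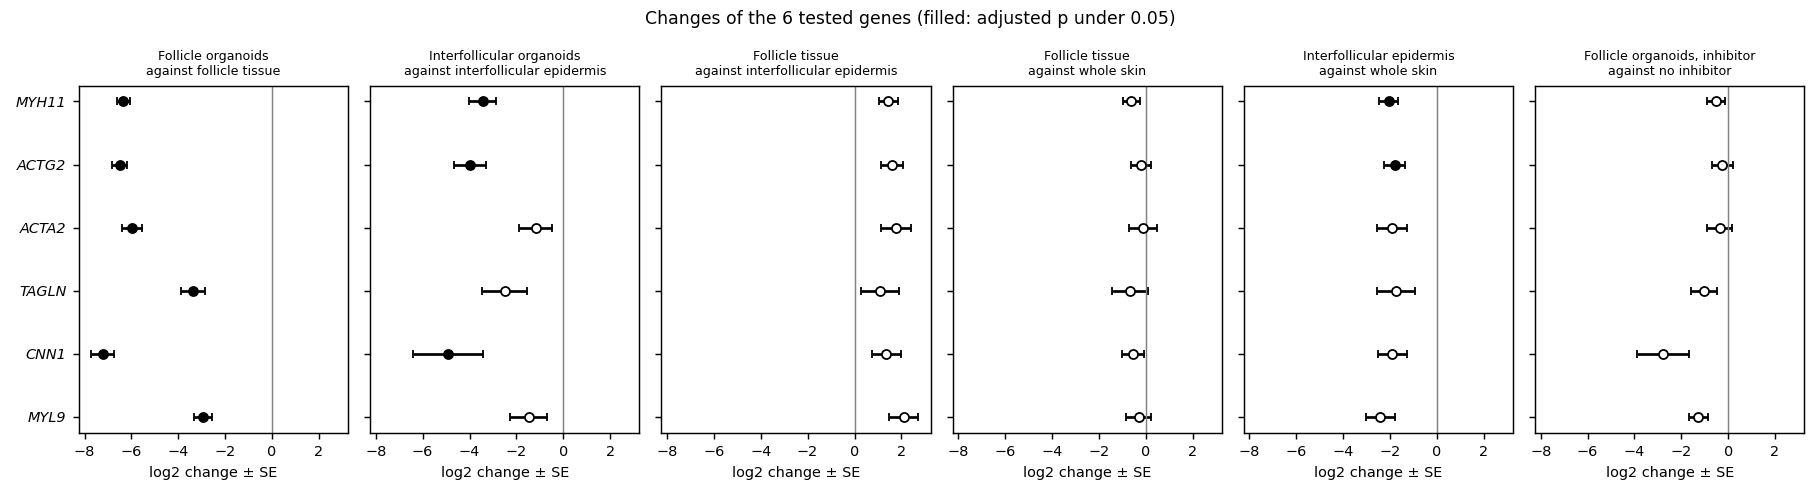
Log2 change ± SE of the 6 tested genes in 6 comparisons, first-named group over second, with filled points where the adjusted p was under 0.05. In follicle organoids against follicle tissue all 6 points are filled and lie between -7.23 and -2.94; the CNN1 values against or among organoids rest in part on groups at 0 counts.

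Most transcripts of the other smooth muscle filament proteins also fell in follicle organoids. Of the 21 contractile partners in the files 18 were tested, 14 fell and 0 rose, with a median of -3.99. ITGA8, an integrin subunit of smooth muscle, fell (-5.85 ± 0.29), as did TPM2, beta-tropomyosin (-5.75 ± 0.38), and CALD1, caldesmon (-3.17 ± 0.29). TPM2 had mean levels between 1.49 and 7.13 CPM in the 4 follicle organoid groups, against 187 CPM in follicles. ACTN1, an actin crosslinker, did not fall, with group means between 70.5 and 105 CPM against 49.8 CPM in follicles. Of 4 serum response factor and myocardin family regulators MYOCD, the coactivator that switches on smooth muscle genes, fell (-2.90 ± 0.85). Its values are near the floor, with 11 counts in follicles and 1 to 3 in each follicle organoid group. SRF itself stood at -0.05 ± 0.35 and MKL2 at -0.70 ± 0.28.

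Non-muscle relatives of the members did not move as a block. Of 10 tested, 4 fell, among them VIM (vimentin, -4.84 ± 0.33), MYH14 (-4.25) and MYH10 (-2.66), non-muscle myosin heavy chains, and ACTB, cytoplasmic beta-actin, rose (1.27 ± 0.42, adjusted p = 0.0295). Their median was -0.15. Under scaling by size factors or library totals the median of all entries moved to -0.17 and -0.19, and changes are read relative to it.

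**Figure D3:**
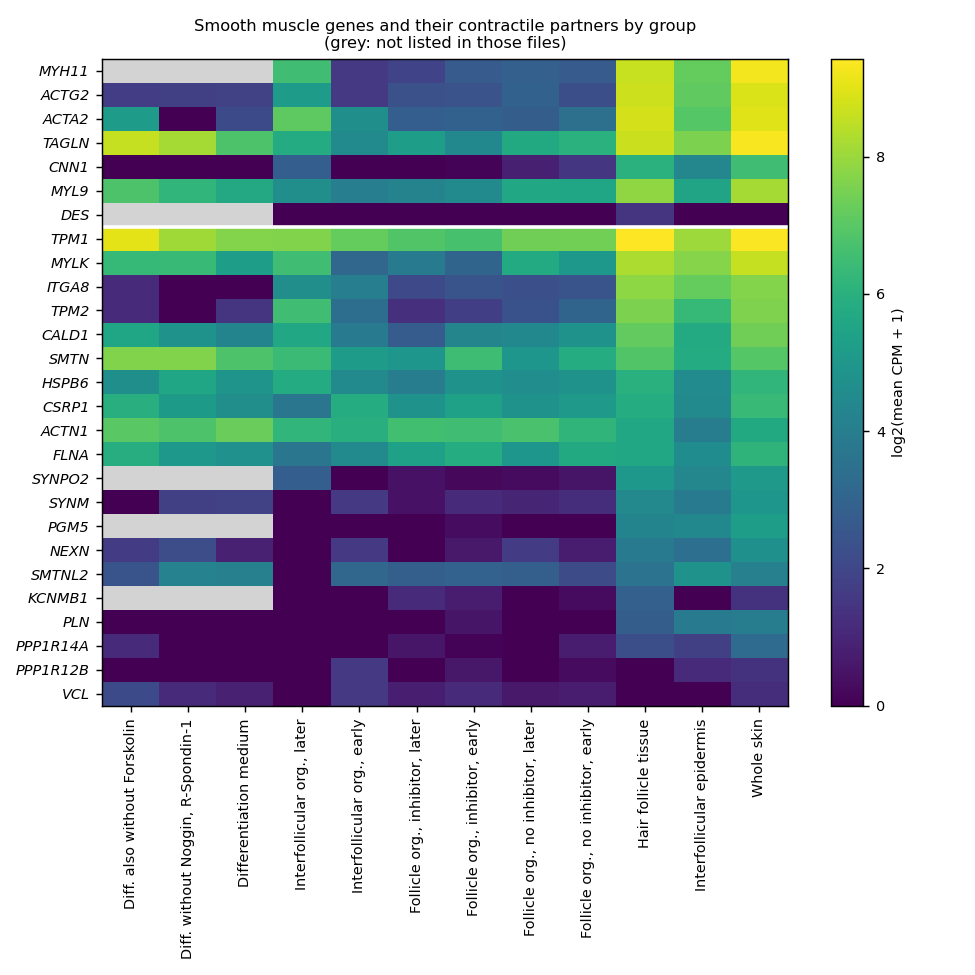
Group means of the 7 genes (above the white line) and of their contractile partners (below it) as log2(mean CPM + 1), grey where the files of that group do not list the gene. The columns of follicle tissue, interfollicular epidermis and whole skin are the brightest for MYH11, ACTG2 and ITGA8, while ACTN1 is brighter in cultures.

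Markers of other cell types moved with this comparison. All 11 tested fibroblast genes fell (median -5.82), among them DCN (decorin, -5.66), COL1A1 (-6.32) and COL6A1 (-4.92), and their summed level was 68.2 to 526 CPM in follicle organoids and 4642 to 7682 in follicles, with COL6A2 at 0 in organoids and in follicles. All 7 tested endothelial genes fell (median -4.65; EMCN -6.30, PECAM1 -6.31, ESAM -5.37), with sums of 5.06 to 19.6 CPM in organoids and 101 to 108 in follicles; CLDN5 and KDR were at 0 in each of the 4 organoid groups. Both tested skeletal muscle genes fell, ACTA1 (-6.67) and CKM (-6.32), and of 3 pericyte genes MCAM (-4.99) and PDGFRB (-3.65) fell and NDUFA4L2 (2.87) rose. Of 9 keratinocyte genes 4 rose, among them COL17A1 (2.80), KRT14 (2.90) and KRT5 (2.76), and DSC1 (-2.39) fell. Of 5 simple epithelial and sweat gland genes 4 fell (KRT8 -5.37, KRT7 -5.37, KRT19 -5.03). AQP5 had group means of 3.75 to 9.18 CPM in follicle organoids, against 1.64 in follicles. The part of these cell types in the fall of the smooth muscle genes was not tested.

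The makeup of the smooth muscle counts differed between culture and tissue. It is given as the share of TAGLN and MYL9 in the counts of the 5 genes listed for all libraries (ACTG2, ACTA2, TAGLN, CNN1 and MYL9). In differentiation media the share ran from 91.5% (exact Clopper-Pearson 95% interval 86.6 to 95.1) to 100% (19 of 19 counts, 82.4 to 100). In the 9 follicle organoid libraries in expansion medium it ran from 73.5% (61.4 to 83.5) to 91.9% (88.7 to 94.4). All these shares lay above those of the 6 tissue libraries, which ran from 37.5 to 49.7%. Interfollicular organoids were at 31.0% (17.6 to 47.1) later and 57.6% (39.2 to 74.5) early, against 48.6 and 38.6% in interfollicular epidermis.

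**Figure D4:**
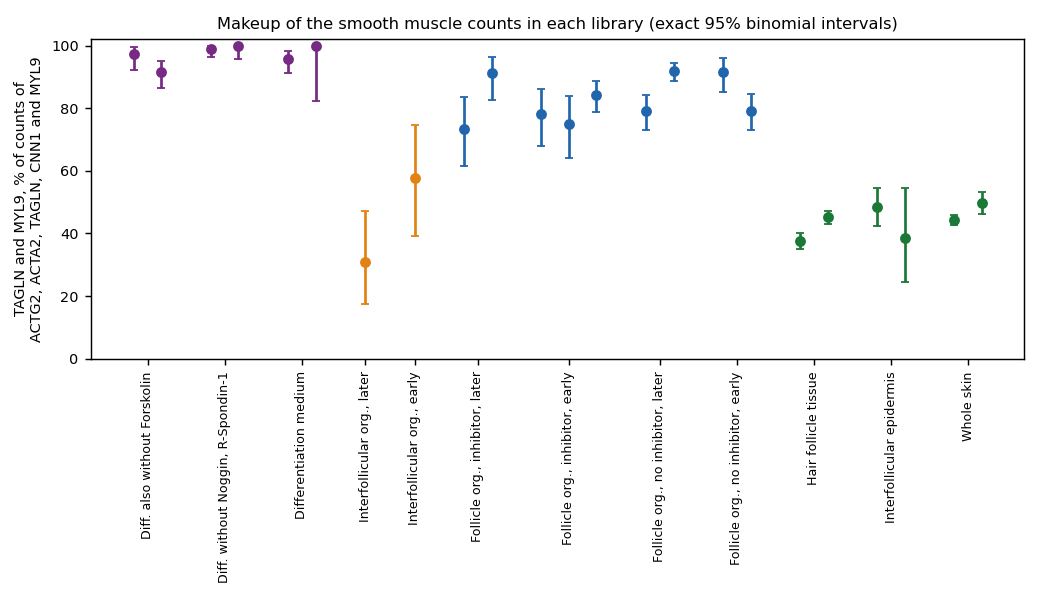
Share of TAGLN and MYL9 in the counts of ACTG2, ACTA2, TAGLN, CNN1 and MYL9, in percent, 1 point per library with its exact 95% binomial interval. The later interfollicular organoid library (orange) lies at 31.0%, the 9 follicle organoid libraries in expansion medium (blue) between 73.5 and 91.9%, and the 6 tissue libraries (green) between 37.5 and 49.7%.

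Interfollicular organoids were compared with interfollicular epidermis by the same question. The organoid side is the mean of 1 later and 1 early library, each fitted as its own group, against 2 libraries of epidermis. The gap between these organoid libraries does not enter the SE, here or in the comparisons below that use them. Of the 6 genes 3 fell, where 4.52% of all entries were called lower. MYH11 was at 91.0 and 1.94 CPM in organoids, against 164 and 125 in epidermis (-3.43 ± 0.58, edgeR adjusted p = 0.000735), ACTG2 changed by -3.99 ± 0.68 (0.000559), and CNN1 by -4.90 ± 1.49 (0.0427), with an organoid group at 0. TAGLN was at -2.50 ± 0.95 (0.0941), MYL9 at -1.47 ± 0.78 (0.235) and ACTA2 at -1.19 ± 0.71 (0.297). Without the early organoid library no gene was called, MYH11 was at -0.66 and ACTA2 at 0.06. Without epidermis replicate 1 MYL9 turned to 1.31, set against the library in which it has 1 count.

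Other lists moved with the interfollicular comparison. Of 11 fibroblast genes 4 fell (median -2.45), among them DCN (-3.65) and COL3A1 (-3.50), and the list summed to 831 CPM in later and 178 in early organoids, against 1347 to 3818 in epidermis. None of 7 tested endothelial genes was called (median -4.16), and their list summed to 12.1 CPM in later and 5.81 in early organoids, against 36.7 to 62.3 in epidermis. Both tested skeletal muscle genes fell (median -7.52). Of 9 keratinocyte genes KRT5 rose (1.70) and 3 fell, among them KRT10 (-4.33) and DSG1 (-3.31). Of 18 contractile partners ACTN1, an actin crosslinker, rose (2.14) and 3 fell, among them ITGA8 (-2.95). The part of these lists in the values of the 6 genes was not tested.

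Interfollicular and follicle organoids, both with the inhibitor, differed in ACTA2. It was higher in interfollicular organoids, at a mean of 79.3 CPM against 6.33 in follicle organoids (3.17 ± 0.66, edgeR adjusted p = 0.00316), as were 5.83% of all entries. The other 5 genes did not pass. Both interfollicular ACTA2 values rest in part on fractional counts (21.5 later and 13.3 early) and are uncertain. MYH11 was at 1.73 ± 0.88 (adjusted p = 0.415) and ACTG2 at 1.04 ± 0.94 (0.648). The result rested on the later library, of 219822 counts. Without it ACTA2 was at 1.98 (adjusted p = 0.753), MYH11 at -0.997 and ACTG2 at -1.04, and without the early library ACTA2, MYH11 and ACTG2 were all called (4.39, 4.49 and 3.13).

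The same later library was high in some partner and dermal genes. Of the 18 tested partners 2 were called higher, and the list's median was -0.14, against -0.33 over all entries. In the later library 9 of the 21 partners in the files were at 0 counts. TPM2 stood at 91.0 CPM there and 9.68 in the early library, against means of 1.49 in later and 2.38 in early follicle organoids with the inhibitor (3.72 ± 0.76), and ITGA8 was also higher (2.39 ± 0.60). Of 3 tested pericyte genes 1 rose, MCAM (2.56), and the median of that list was -0.18. In the later library 4 of the 7 pericyte genes in the files were at 0 counts. Of 11 fibroblast genes 3 rose, DCN (2.40), COL1A2 (2.30) and COL1A1 (2.15). The fibroblast sum was 831 CPM in the later and 178 in the early interfollicular library, against 68.2 to 153 in follicle organoids with the inhibitor, with COL6A2, LUM, PDGFRA and MFAP5 at 0 in the later one. The part of these genes' cells in the ACTA2 difference was not tested.

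The change from tissue to organoid was set between the origins to ask whether culture acted alike on both. ACTA2 differed: interfollicular organoids with the inhibitor held 79.3 CPM against 123 in their tissue, and follicle organoids with it 6.33 against 455, a difference of changes of 4.96 ± 0.93 (edgeR adjusted p = 0.00227), where 3.48% of all entries were called higher. The ACTA2 values of both interfollicular organoid libraries and of follicle tissue replicate 2 rest in part on fractional counts and are uncertain. MYH11 was at 3.18 ± 1.07 (0.156), MYL9 at 2.11 ± 0.96 (0.280) and ACTG2 at 2.63 ± 1.17 (0.268). Without the later interfollicular library the ACTA2 difference was 3.77 (adjusted p = 0.135) and 0 genes were called, and without the early one 3 were. In the same comparison 5 of 11 fibroblast genes were called higher (median 2.88), among them DPT (5.22), COL1A1 (4.75) and DCN (2.64). So were 3 of 18 partners (median 1.19), TPM2 (4.94), ITGA8 (2.98) and CALD1 (2.66). Of 3 tested pericyte genes 1 was called higher, MCAM (3.71), with a list median of 0.15. Of 5 simple epithelial and sweat gland genes KRT8 (5.22) and KRT7 (4.67) were called higher, and of 9 keratinocyte genes 3 were called lower, among them KRT10 (-4.77) and COL17A1 (-3.34). The part of these lists in the ACTA2 difference was not tested.

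The Tgf-beta inhibitor was compared with its absence in follicle organoids, pooled over passages, since Tgf-beta signalling is a known inducer of contractile genes in fibroblasts and epithelium. None of the 6 genes passed, where 2.68% of all entries were called in either direction. MYL9 came nearest, with 15.6 to 24.4 CPM in 5 libraries with the inhibitor, against 37.6 to 60.3 in 4 without it (-1.28 ± 0.40, edgeR adjusted p = 0.0943). TAGLN ranged from 18.6 to 53.2 CPM (median 21.5) with the inhibitor, against 11.7 to 104 (median 58.3) without it (-1.04 ± 0.55, 0.420). MYH11, ACTG2 and ACTA2 stood at -0.53 ± 0.38, -0.25 ± 0.44 and -0.35 ± 0.54. At an unadjusted p under 0.05 there were 2 genes, MYL9 and CNN1, and 1402 of all 9888 entries in either direction. DESeq2 called 0 of the 6 genes. In a fit of these 4 groups alone MYL9 passed (-1.28 ± 0.23, adjusted p = 0.0149), and it also did with no filter on low counts (-1.27, 0.00536).

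By passage, the MYL9 difference was -1.49 ± 0.60 later and -1.06 ± 0.52 early, and that of TAGLN -0.47 ± 0.81 later and -1.61 ± 0.75 early. No gene passed at either passage, where 0.314% and 1.31% of all entries were called. An unadjusted p under 0.05 was found for 1 and 2 genes, and for 541 and 1294 of all 9888 entries. DESeq2 called 0 genes at either passage. The later TAGLN value turned positive when a single library was left out: 0.08 without later inhibitor replicate 1 and 1.64 without later replicate 2 without inhibitor. The effect of the inhibitor on MYL9 did not differ between passages by the test (-0.44, adjusted p = 1; 0% of all entries called), and 0 genes had an unadjusted p under 0.05. Later against early passage gave 0 of 6 genes as well, where 0.354% of all entries were called, with adjusted p between 0.930 and 1.000, and 0 at an unadjusted p under 0.05 or by DESeq2.

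Some related genes did pass in the inhibitor comparison. PMEPA1, a direct Tgf-beta target, fell by 3.94 ± 0.49 on the log2 scale (edgeR adjusted p = 0.000143), and its group means were 1.37 and 3.01 CPM with the inhibitor, against 32.9 and 32.6 without it. It was the only one of 9 tested Tgf-beta targets called (median -0.71), and TGFBI stood at -1.91 ± 0.54 (0.0621). VIM fell by 1.53 ± 0.37 (0.0265), the only one of 10 non-muscle relatives called, and DCN by 1.26 ± 0.32 (0.0387), the only one of 11 fibroblast genes. Of the 18 partners 0 passed, CALD1 at -1.13 ± 0.33 (0.0732) and MYLK, the light chain kinase, at -2.04 ± 0.61 (0.0790), and the list's median was -0.09. The fibroblast sums were 68.2 to 153 CPM with the inhibitor and 70.8 to 526 without it, and their part in the MYL9 and TAGLN values was not tested.

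Differentiation media, averaged over the 3 recipes, were set against later follicle organoids without the inhibitor. Of 5 genes listed for both, TAGLN rose, where 4.4% of all entries were called higher. TAGLN averaged 261 CPM over the 3 media, against 51.8 CPM in expansion medium, with overlapping libraries (2.17 ± 0.73, edgeR adjusted p = 0.0490). MYL9 stood at 77.4 against 48.9 CPM (0.62 ± 0.47, 0.393) and ACTG2 at 2.42 against 6.57 (-1.15 ± 0.61, 0.208). The call of TAGLN did not hold under the replicate block (2.18, adjusted p = 0.0712), with fractions kept (2.18, 0.0505) or in a fit of these groups alone (2.21, 0.188). With a block within the 6 differentiation libraries it did (2.17, adjusted p = 0.0282), and ACTG2 passed as lower (-3.19, 0.0213), with 0 counts in the second library of each medium. Without expansion replicate 1 it was 1.33, without the first library of full medium 1.68, without the first of medium lacking Noggin and R-Spondin-1 1.95 and without the second of medium lacking Forskolin too 1.71, none of them called. Without expansion replicate 2 it was 4.26.

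The differentiation libraries list 18108 entries and another gene set than the expansion libraries, so that the medium and the listing cannot be told apart. Of 16 tested partners SMTN (smoothelin) rose (2.44 ± 0.51) and ITGA8 fell (-3.95 ± 1.08), and CNN3, a calponin of non-muscle cells, rose (2.50 ± 0.72) while ACTB fell (-1.15 ± 0.38). Of 9 Tgf-beta targets PMEPA1 (1.73 ± 0.46) and THBS1 (2.73 ± 0.76) rose and BAMBI (-4.41) fell. Of 11 fibroblast genes 4 fell, among them DCN, COL1A2 and COL3A1, with sums of 36.5 to 89.9 CPM in differentiation media and 70.8 to 91.6 in expansion medium.

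**Figure D5:**
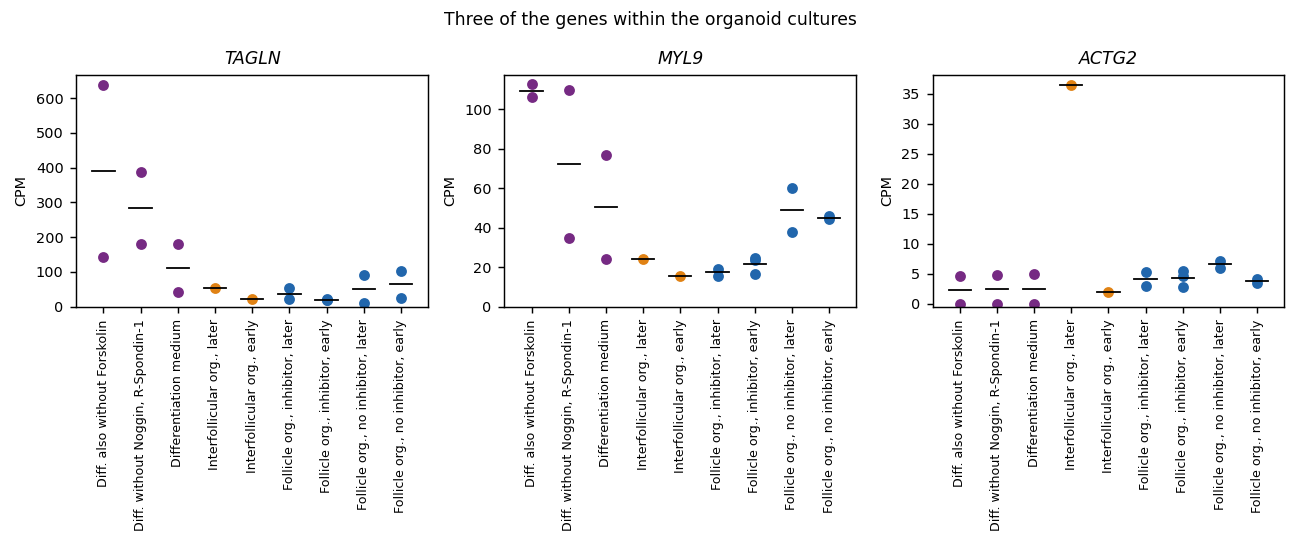
CPM of TAGLN, MYL9 and ACTG2 in the 9 organoid groups, 1 point per library with the group mean as a bar, each panel on its own linear axis. MYL9 lies between 15.6 and 24.4 CPM in follicle organoids with the inhibitor and between 37.6 and 60.3 without it, and TAGLN reaches 637 CPM in differentiation medium lacking Noggin, R-Spondin-1 and Forskolin.

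Between the media no gene passed. Removing Noggin and R-Spondin-1 gave TAGLN 387 and 180 CPM, against 179 and 41.5 in full medium (1.31 ± 0.81). Removing Forskolin too gave 143 and 637 CPM, against 387 and 180 (0.44 ± 0.79). For both steps 0 of 5 genes and 0% of all entries were called (edgeR). An unadjusted p under 0.05 was found for 260 and 328 of all 9732 entries, and for 0 and 1 of the genes. That gene is ACTA2, with 2.31 and 69.3 CPM without Forskolin, against 0 and 0, and DESeq2 called 0 genes in either step.

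Likeness between the genes across the groups is given as Pearson correlations of log2 group means that share libraries and depth. MYH11 and ACTG2 were the closest pair (0.987 over 9 groups), and CNN1 followed ACTG2 (0.985 over 12). TAGLN and MYL9 went together over 12 groups (0.860) and over the cultures alone (0.849). ACTG2 and TAGLN had 0.587 over all groups and -0.300 over cultures, where ACTG2 had 2 or 3 counts in each differentiation group. MYH11, over 9 groups, had 0.932 with TAGLN (0.635 over cultures) and 0.755 with MYL9 (0.170). Values over 9 groups leave out the differentiation media and cannot be set directly against those over 12.

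Outside the 7 genes, the patterns most like the mean of the 5 genes listed for all 12 groups were those of LOC607874 (0.979), SDR16C5 (0.970), UNC5B (0.970), HSD17B4 (0.968) and PDLIM3 (0.958). For single genes the nearest over 12 groups were AGPAT3 for ACTG2 (0.989), EFHD1 for ACTA2 (0.963), THBS1 for TAGLN (0.952), LPL for CNN1 (0.985) and EDN1 for MYL9 (0.953). THBS1, a matrix protein and Tgf-beta target, had group means of 184, 166 and 50.5 CPM in the 3 differentiation media (without Noggin, R-Spondin-1 and Forskolin; without Noggin and R-Spondin-1; full), against 14.5 and 19.4 CPM in the libraries of later follicle organoids without the inhibitor.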

How the data were processed

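Values were taken as estimated counts per gene, as deposited by the authors, since part of them carry a fraction, and were rounded to whole numbers. Reads were aligned with BWA 0.6.2-r126 to CanFam3.1, per the submitters' processing notes. Which annotation and counting tool were used, and how molecular barcodes were treated, is not given in the sources used here. Entries naming no gene (0.461 to 2.158% of counts per library) were excluded. In R 4.3.3, edgeR 4.0.16 removed low entries with its default filter, scaled libraries by the trimmed mean of M values and fitted its quasi-likelihood model with 12 group means (common dispersion 0.0986, 11 residual degrees of freedom). The Benjamini-Hochberg adjustment ran over 9888 entries, or 9732 for comparisons with differentiation libraries. Calls use an adjusted p under 0.05. SEs were derived from the log2 change and its F statistic. Entries not listed in the differentiation libraries stood at 0 in those groups' own means. Pooled groups enter as the mean of their group values, and "only the groups compared" is a fit without the other libraries.

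The 7 genes and all lists were chosen with earlier results of these data known. The named genes are the 7, from each list at most 3 genes called higher and 3 called lower, taken by p (at most 2 if the list had no call), and the most alike patterns (log2 CPM with a prior count of 2). The values of 1 contractile partner are not reported here. MYLK is also named in the partner list for its role, and ACTN1 in follicle organoids as a partner that did not fall. AQP5 and OXTR are named beside the calls of their list because they did not rise in follicles. Alternatives were DESeq2 1.42.0 size factors and tests, library totals, no filter, fractions kept, the replicate block, a block within the differentiation libraries (chosen after seeing the data), other samples in the fit and leaving out each library. The fits were also run on simulated counts with 1 common mean per entry and 1 fixed dispersion. Changes of 2-fold and 4-fold were recovered in 0% and 22% of cases for follicles against epidermis. The shares were 8% and 82% for follicle organoids against follicles, 18% and 80% for the pooled inhibitor, and 10% and 64% for differentiation. The labels tie no replicate number to a shared dog or culture, so that the fits are unpaired.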

Additional observations from a re-analysis of the deposited data

Results flagged for a closer look

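The change of ACTA2 from tissue to organoid differed between origins by 4.96 ± 0.93 on the log2 scale (edgeR adjusted p = 0.00227). Interfollicular organoids held 133 and 25.2 CPM, against 183 and 62.3 in interfollicular epidermis, while follicle organoids with the inhibitor held 4.01 to 8.17 CPM, against 554 and 357 in follicles. It drew attention because the difference between the origins passed its own test. The ACTA2 values of both interfollicular organoid libraries rest in part on fractional counts and are uncertain. Over the alternatives the difference ran from 3.77 to 6.20, and the lowest value, not called (adjusted p = 0.135), is that without the later interfollicular library, which holds 219822 counts.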

How the results depend on the processing

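Leaving out a library gave 0 or 1 gene lower in interfollicular epidermis than in whole skin (2 with all libraries), 0 or 1 for follicles against epidermis (0), 0 to 3 for interfollicular organoids against their tissue (3), 0 to 3 for interfollicular against follicle organoids and for the difference between origins (1 each), and 0 or 1 for differentiation against expansion (1). For epidermis against whole skin 1 gene was called with size factors, library totals, fractions kept or the groups compared alone, and 5 with no filter. With no filter the counts were 3 for follicles against epidermis, 2 for the pooled inhibitor, 1 for the early inhibitor and 1 for Forskolin removal. DESeq2 gave 2 for follicles against epidermis and 2 for the difference between origins. The groups compared alone gave 1 for the pooled inhibitor and 0 for differentiation. Differentiation also gave 0 under the replicate block or with fractions kept, and 2 when the reference was expansion with inhibitor, or with and without it. The replicate block moved no other count by over 1.5 times. Deviations of same-numbered libraries had r from -0.479 to 0.653 (median 0.0145, 45 pairs of groups), and the 3 differentiation media correlated by number (0.653, 0.557 and 0.534). A replicate block within those 6 libraries, chosen after seeing the data, gave 2 for differentiation and 0 for both medium steps (TAGLN 1.32 and 0.56). Directions turned without 1 library for MYL9 (range -2.05 to 1.31) and ACTA2 (-2.37 to 0.056) in interfollicular organoids against tissue, MYH11 (-0.997 to 4.49) and ACTG2 (-1.04 to 3.13) in interfollicular against follicle organoids, TAGLN under the later inhibitor (-1.31 to 1.64, with 0.08 among them) and TAGLN at Forskolin removal (-0.97 to 1.16, with -0.01 among them). The causes were not tested. Of the other values of single genes, 578 kept their direction and side of the threshold, 27 gained a call and 27 lost one. The median of all entries for interfollicular organoids against tissue was -0.15, -0.29 with size factors and -0.70 with library totals, with 663 entries higher and 447 lower, 561 and 532, and 389 and 1111. For follicle organoids against follicles 893 rose and 1876 fell, and 616 and 2179 with size factors; for follicles against epidermis 202 and 73, and 146 and 143 with library totals. Depth limits low values: 1 count is 7.78 CPM in epidermis replicate 2.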
